A study of Prunus persica with 8 samples.

Results

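Described here are 10 peach genes that the study listed under jasmonic acid: 1 gene matched to MYC2, 4 matched to JAZ repressors and 5 matched to terpene synthases. They were picked by name from the 26873 genes of the expression table, and all 10 were in the table with reads in every tree. The study had put them on its list because they were higher in pillar trees in these same libraries. They were then chosen from it for varying together over these trees. The values below that compare the growth habits or single out a tree thus describe this choice, as does the likeness between the genes. They were not tested.

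Jasmonates are lipid-derived hormones that plants make when tissue is wounded or attacked by insects. In Arabidopsis, the active form, jasmonoyl-isoleucine, brings the JAZ repressors to the receptor COI1 for destruction, which frees the transcription factor MYC2 to switch on its target genes. The JAZ genes are themselves among these targets, so that JAZ transcripts are often read as a sign of recent jasmonate signalling, and terpene synthase genes, which make volatile and defensive terpenes, are known targets further down.

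The libraries were made from branch tips of 8 mature, untreated peach trees of 1 segregating F2 population grown in a field. The 4 pillar trees have vertically oriented branches, and pillar trees of this population are homozygous for a mutated TAC1, a gene that sets branch angle. The 4 standard trees have the ordinary spreading habit. Each tree gave 1 library of 50-bp reads from its shoot tips and counts as 1 biological replicate, and the raw data of the standard trees had been used before in another study of the same group. The pillar trees are numbered 4, 7, 8 and 10 and the standard trees 7, 8, 9 and 10. Where all 4 values of a growth habit are given, they follow the tree numbers from low to high. Values are in TPM, transcript abundance as reads divided by the length of the gene region and scaled to a sum of 1000000 in each tree.

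Between 18429259 and 23994336 reads were assigned to genes in each library. TAC1 itself was at 0.8021 to 1.271 TPM in pillar trees and at 17.19 to 28.15 TPM in standard trees, so no library went against its label. The sequencing lane in the column names was 8 for pillar trees 4 and 7 and 6 for all other trees, so that only pillar trees carried the lane number 8. Pillar tree 4 stood apart as a library. It was the highest tree for 31.8% of the tested genes, against 6.21% to 14.0% for each of the other trees, with a median log2 difference of 0.146 to the other trees over all tested genes, against -0.13 to 0.116 for the other libraries. The growth habits were compared over the 20055 genes that averaged 0.5 TPM or more (the tested genes) with limma, a linear model that shares variance between genes, on log2(TPM + 0.5) and with Benjamini-Hochberg adjustment. Of these, 24 genes (0.12%) had an adjusted p-value under 0.05, and none of the 10 jasmonate genes did. By an unadjusted p-value under 0.05 the number was 956 of all tested genes (4.77%), and again 0 of the 10. The study's own criteria were an unadjusted p-value of at most 0.05, an average of 5 or more reads in both growth habits and a fold over 1.5. Applied to this fit, 224 of the tested genes met them as higher in pillar (1.12%), and 0 of the 10 did. The study applied them to the differential expression test of its CLC software, and its list of 641 genes held all 10. The tests differ, so the counts given here do not repeat those of the study.

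MYC2 (Prupe.5G130700, chromosome 5 from 12631561 to 12633739 on the plus strand of peach genome version 2) was high in a single tree. MYC2 had 19.14, 0.715, 1.212 and 1.156 TPM in the pillar trees, against 0.5117, 0.4699, 0.4065 and 1.223 TPM in the standard trees. Pillar tree 4 was 15.7 times as high as the next tree, which was standard tree 10, and the other 3 pillar trees fell inside the range of the standard trees. The value of pillar tree 4 rested on 350 reads, with a 95% exact Poisson interval of 17.2 to 21.3 TPM that covers counting error only. The other 7 libraries held 8 to 25 reads of MYC2, and the interval of standard tree 9, the lowest, was 0.176 to 0.801 TPM. The interval of standard tree 10, the highest of these 7 trees on 25 reads, was 0.791 to 1.81 TPM.

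JAZ8 (Prupe.4G082500, chromosome 4 from 4029201 to 4030403), whose Arabidopsis match is a JAZ repressor that resists hormone-driven destruction, had the same single high tree. JAZ8 had 57.76, 3.022, 3.386 and 5.67 TPM in the pillar trees, against 0.278, 1.324, 1.657 and 4.784 TPM in the standard trees. Pillar tree 4 was 10.2 times as high as the next tree, pillar tree 10. JAZ8 also spread widely without it, 20.4-fold between the highest and the lowest of the other 7 trees. The low end was standard tree 7, on 3 reads and with a counting interval of 0.0573 to 0.813 TPM, which lies below the values of all other trees.

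JAZ2 and JAZ10 were the abundant repressor genes. JAZ2 (Prupe.3G037800, chromosome 3 from 2732646 to 2733608) had 300.0, 45.7, 40.12 and 55.24 TPM in the pillar trees, against 23.27, 45.01, 30.81 and 58.33 TPM in the standard trees. JAZ10 (Prupe.1G218500, chromosome 1 from 23337738 to 23339949), whose Arabidopsis match is a strongly jasmonate-induced repressor, had 101.3, 10.98, 7.266 and 26.57 TPM in the pillar trees, against 7.359, 18.36, 11.31 and 21.78 TPM in the standard trees. Both genes were several times higher in pillar tree 4 than in any other tree, 5.14 times the next tree for JAZ2 and 3.81 times for JAZ10. The remaining pillar and standard trees were interleaved.

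JAZ12 (Prupe.1G578500, chromosome 1 from 47075732 to 47079165), matched to a further JAZ repressor, was the exception among the repressor genes. JAZ12 had 7.775, 4.234, 1.346 and 6.417 TPM in the pillar trees, against 1.558, 1.822, 2.16 and 3.942 TPM in the standard trees. Pillar tree 4 was still the highest, but by only 1.21 times over pillar tree 10. Pillar tree 8 lay below every standard tree, so that the pillar trees held both ends of the range.

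Of the terpene synthase genes, TPS-CIN a and TPS-CIN b were the neighbours matched to the cineole synthase of Arabidopsis, the letters being added here to tell them apart. TPS-CIN a (Prupe.3G222200, chromosome 3 from 22262877 to 22266984) ends 5054 bp before TPS-CIN b (Prupe.3G222300, 22272039 to 22275403) starts, with 0 genes between them. TPS-CIN a had 39.57, 2.054, 0.8843 and 4.547 TPM in the pillar trees, against 1.357, 2.631, 1.348 and 2.024 TPM in the standard trees. TPS-CIN b had 10.31, 2.662, 1.668 and 5.769 TPM in the pillar trees, against 1.855, 4.631, 0.7239 and 2.819 TPM in the standard trees. Both were highest in pillar tree 4, but TPS-CIN a by 8.7 times over the next tree and TPS-CIN b by 1.79 times. The study let a read match several places, so reads of near-identical terpene synthase copies could have been split between them, and the value of each copy is uncertain to that extent.

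TPS02 and TPS14 lie on chromosome 4, 20437 bp apart with 3 genes between them. In Arabidopsis, TPS02 is an ocimene synthase in some natural strains and TPS14 a linalool synthase. TPS02 (Prupe.4G029900, 1390452 to 1393161) had 32.55, 18.97, 5.321 and 8.17 TPM in the pillar trees, against 4.772, 4.324, 7.068 and 8.535 TPM in the standard trees. It was the 1 gene of the 10 with pillar tree 7, which shared the lane number of pillar tree 4, as the next highest tree. TPS14 (Prupe.4G030300, 1413599 to 1416201) had 256.5, 82.95, 76.5 and 84.01 TPM in the pillar trees, against 34.31, 145.5, 40.62 and 61.09 TPM in the standard trees. Its other 3 pillar trees were close together, at 81.2 ± 4.06 TPM (SD, n = 3), and standard tree 8 exceeded all of them.

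TPS03 (Prupe.4G125300, chromosome 4 from 6862449 to 6871004), whose Arabidopsis match makes ocimene, returned to the pattern of JAZ2 and JAZ10. TPS03 had 221.8, 19.26, 8.466 and 23.79 TPM in the pillar trees, against 10.8, 29.25, 17.52 and 38.37 TPM in the standard trees. Pillar tree 4 was 5.78 times as high as standard tree 10, and the other 3 pillar trees averaged 17.2 ± 7.87 TPM (SD, n = 3), against 24.0 ± 12.3 TPM in the standard trees (SD, n = 4). The region of TPS03 overlaps that of another gene, so part of its reads could belong to that gene.

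**Figure D1:**
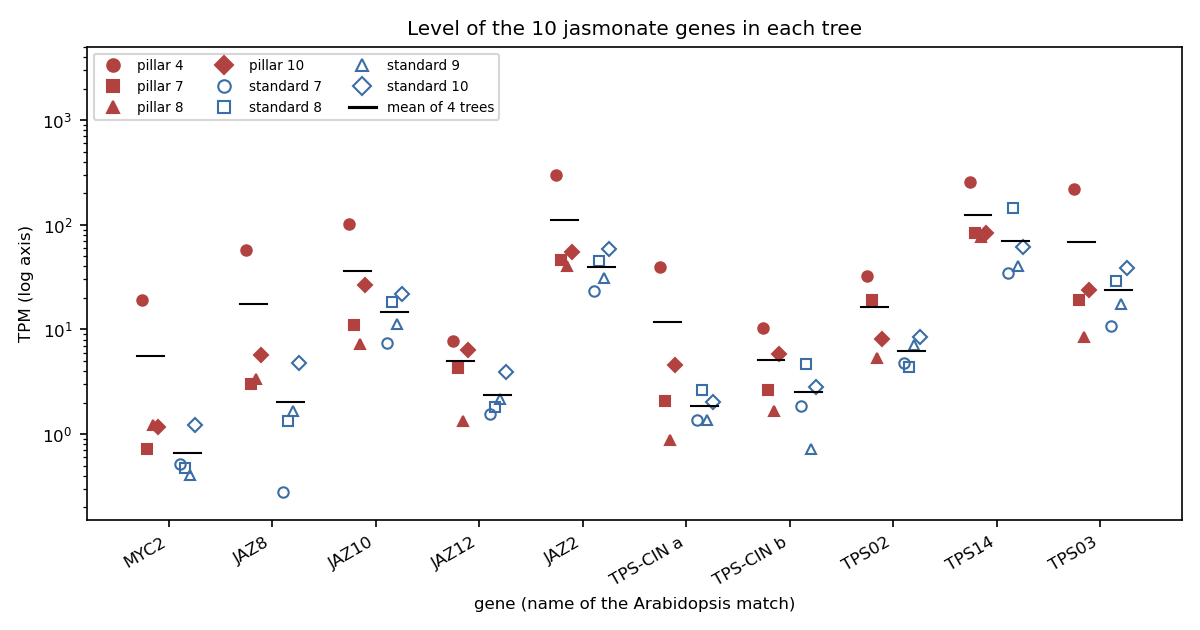
Level in TPM on a log axis (vertical) of the 10 jasmonate genes (horizontal), with the pillar trees as filled red marks to the left of the standard trees as open blue marks. Each mark is 1 tree and each bar is the mean of the 4 trees of a growth habit. The filled circle of pillar tree 4 is the highest mark for all 10 genes, at 19.14 TPM for MYC2 and 300.0 TPM for JAZ2, and the other pillar trees mix with the standard trees.

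Pillar tree 4 had the highest level of the 8 trees for 10 of the 10 genes, where 31.8% of all tested genes were highest in that tree. It was more than 2-fold above the next tree, on the log2(TPM + 0.5) scale, for 6 of the 10 (MYC2, JAZ8, JAZ10, JAZ2, TPS-CIN a and TPS03), against 0.898% of all tested genes. Ordered by this gap, MYC2 ranked 5 and JAZ8 ranked 12 among the 20055 tested genes, while JAZ12 ranked 1744. As the genes were chosen for varying together on these trees, these counts and ranks describe the choice. The summed level of the 10 genes was 1047, 190.5, 146.2 and 221.3 TPM in the pillar trees, against 86.07, 253.3, 113.6 and 202.9 TPM in the standard trees. In bulk tissue, more cells that express a gene and more transcript per cell cannot be told apart.

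The other 7 trees had an order of their own. After pillar tree 4, the highest tree was pillar tree 10 for 5 genes, standard tree 10 for 3, and pillar tree 7 and standard tree 8 for 1 each. The lowest tree was pillar tree 8 for 4 genes, standard tree 7 for 3, standard tree 9 for 2 and standard tree 8 for 1. The median log2 difference of the 10 genes to the mean of the standard trees was 2.93, 0.28, -0.22 and 0.76 in the pillar trees, against -0.54, 0.35, -0.28 and 0.64 in the standard trees. Outside pillar tree 4 the 10 genes thus had a high and a low tree in each growth habit. Pillar tree 7, with the same lane number as pillar tree 4, lay among the other trees, and the part of the lane in the level of pillar tree 4 was not tested.

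**Figure D2:**
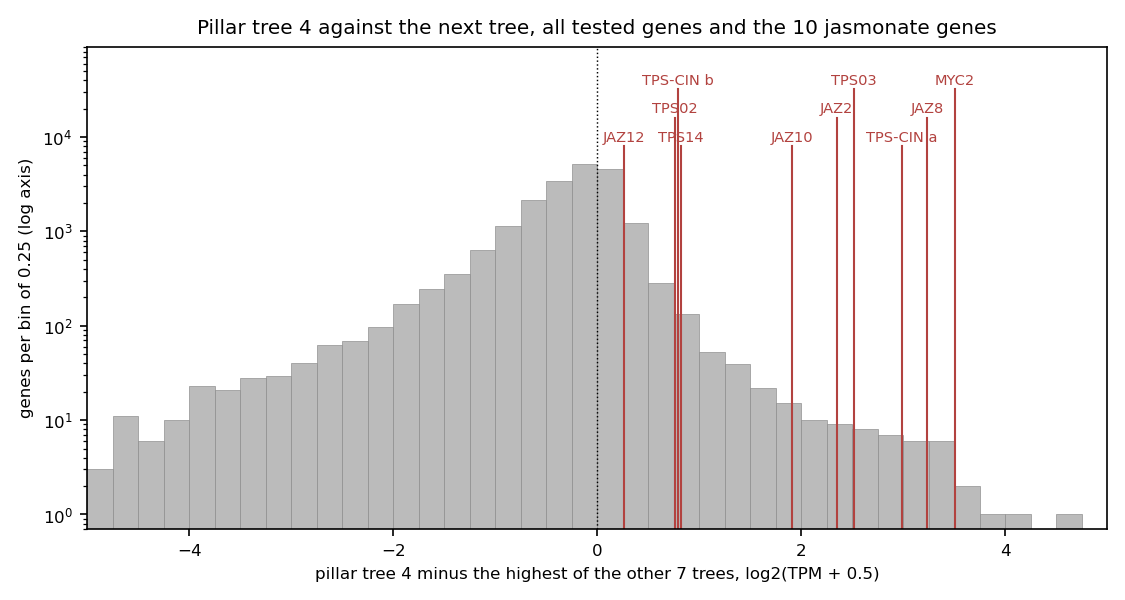
Number of genes (vertical, log axis) by the level of pillar tree 4 minus the highest of the other 7 trees on the log2(TPM + 0.5) scale (horizontal), for the 20055 tested genes in bins of 0.25. The red lines mark the 10 jasmonate genes, all to the right of 0, from JAZ12 at 0.26 to MYC2 at 3.51.

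Between the growth habits, the mean log2 difference of pillar to standard trees over all 8 trees was above 0 for 10 of the 10 genes, where 30.7% of all tested genes were higher in pillar. The median over the 10 genes was 0.93, against -0.09 over all tested genes. The difference was widest for JAZ8 at 2.06 and MYC2 at 1.37, and narrowest for TPS03 at 0.51. It exceeded 1.5-fold for 9 of the 10, where 2.98% of all tested genes did. Pillar and standard trees overlapped for all 10 genes, and pillar trees lay wholly above standard trees for 1.0% of all tested genes.

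Leaving out pillar tree 4 lowered all 10 of these differences, as it had to, since that tree was the highest for all 10 genes. The median over the 10 genes became 0.42, with 8 genes above 0 and 2 below. Over all tested genes the median was then -0.139, and their share above 0 in this setting was not computed. JAZ8 kept the widest difference at 1.13, TPS02 had 0.62, JAZ12 had 0.52 and MYC2 had 0.44, while JAZ10 was at -0.07 and TPS03 at -0.44. Within lane 6, which leaves pillar trees 8 and 10 against all 4 standard trees, the median was 0.36, against -0.131 over all tested genes. JAZ8 was then at 1.29, MYC2 at 0.6, TPS02 at 0.14, JAZ10 at 0.04 and TPS03 at -0.58. For JAZ8, the 3 pillar trees other than tree 4 averaged 4.03 ± 1.44 TPM (SD, n = 3), against 2.01 ± 1.94 TPM in the standard trees (SD, n = 4), a difference about the size of the spread between trees.

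The genes did not scale together in pillar tree 4. Relative to MYC2, 6 of the other 9 genes had their lowest ratio of the 8 trees there (JAZ10, JAZ12, JAZ2, TPS-CIN b, TPS02 and TPS14). All 9 ratios share MYC2 as denominator, and MYC2 ranked 5 among the 20055 tested genes by its gap in that tree. A low ratio there thus largely restates the excess of MYC2. The share of all tested genes with such a low ratio was not computed. JAZ2 was 15.7 times the TPM of MYC2 in pillar tree 4, against 33.1 to 95.8 times in the other 7 trees. JAZ12 was 0.406 times the TPM of MYC2 in pillar tree 4, against 1.11 to 5.92 times in the other trees. TPS14 was 13.4 times MYC2 in pillar tree 4, against 50.0 to 309.6 times elsewhere. MYC2 thus had a larger relative excess in that tree than most of the genes listed with it, although the ratios of the other trees rest on 8 to 25 MYC2 reads.

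For JAZ8, TPS-CIN a and TPS03 the ratio to MYC2 in pillar tree 4 lay within the range of the other 7 trees. TPS-CIN a was 2.07 times MYC2 in pillar tree 4, against 0.729 to 5.60 times in the other trees, and TPS03 was 11.6 times MYC2, against 6.98 to 62.3 times. The ratio of JAZ8 to MYC2 was 3.02, 4.23, 2.79 and 4.91 in the pillar trees, against 0.543, 2.82, 4.08 and 3.91 in the standard trees. The counting interval in pillar tree 4 was 2.64 to 3.46, and it overlapped the intervals of all other trees but standard tree 7, whose interval was 0.0961 to 2.11 on 3 JAZ8 reads. Of the pairs examined, JAZ10 to JAZ2 and TPS03 to JAZ10 were the steadiest, with an SD over the 8 trees of 0.45 and 0.40 on the log2 scale. TPS03 was 0.896 to 2.19 times JAZ10 over all trees, although both genes themselves varied more than 10-fold. The size of such a ratio depends on the region lengths with introns, 8556 bp for TPS03 and 2212 bp for JAZ10. Its change between trees does not.

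The TPS-CIN neighbours changed places. TPS-CIN a was 3.84 times TPS-CIN b in pillar tree 4, with a counting interval of 3.38 to 4.37. In the other pillar trees the ratio was 0.772, 0.53 and 0.788, and in the standard trees 0.731, 0.568, 1.86 and 0.718. Only in pillar tree 4 and standard tree 9 did TPS-CIN a exceed TPS-CIN b, and the interval of standard tree 9, 1.11 to 3.23, lay below that of pillar tree 4. The pair TPS14 and TPS02 had its highest ratio of 33.7 in standard tree 8 and its lowest of 4.37 in pillar tree 7, with 7.88 in pillar tree 4.

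**Figure D3:**
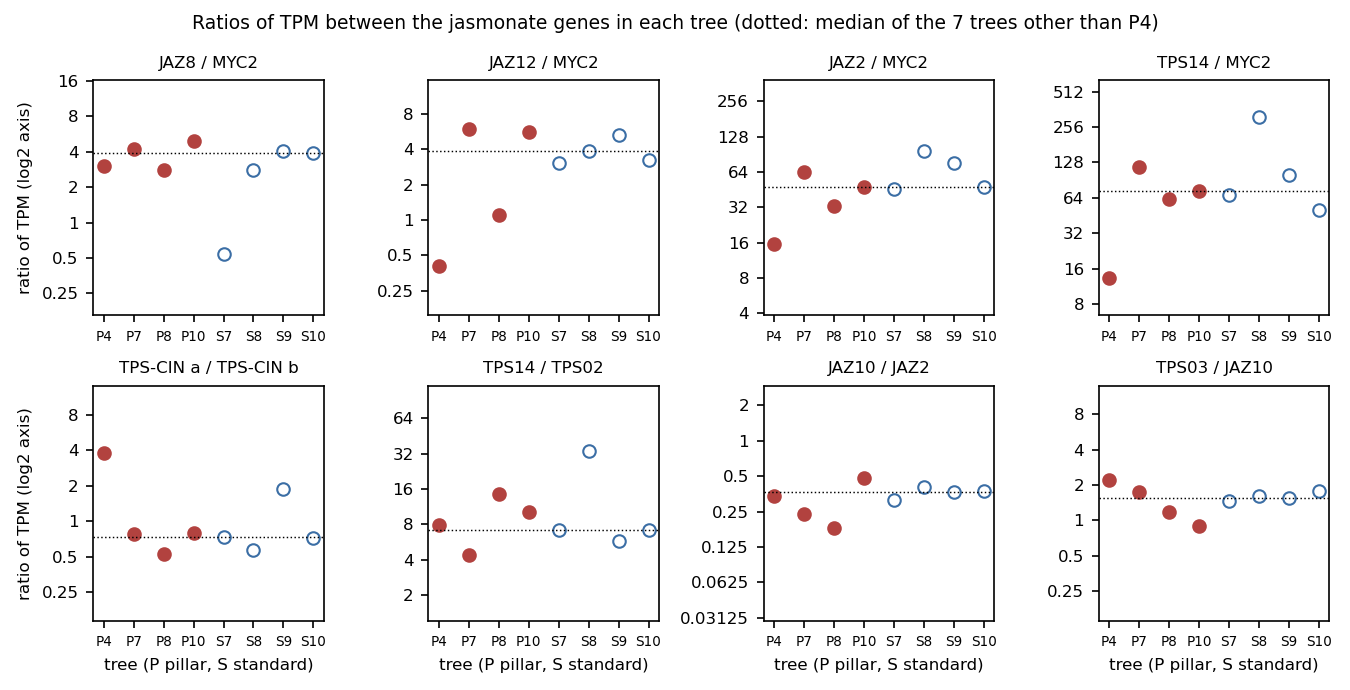
Ratio of TPM between 2 jasmonate genes (vertical, log2 axis) in each tree (horizontal), with pillar trees as filled red and standard trees as open blue circles, 1 panel per ratio. The dotted line is the median of the 7 trees other than pillar tree 4. JAZ2, JAZ12 and TPS14 relative to MYC2 are lowest in pillar tree 4, the ratio of TPS-CIN a to TPS-CIN b is highest there at 3.84, and JAZ8 to MYC2 is low only in standard tree 7.

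The 10 genes varied together over the 8 trees, as their choice made likely. Pearson's r of log2(TPM + 0.5) was between 0.54 and 0.97 for the 45 pairs of genes, with a median of 0.81. These points share their libraries, and pillar tree 4 is the far point for every pair. Without that tree r was between 0.05 and 0.89, with a median of 0.54, and it was below 0.5 for 20 of the 45 pairs. The median of Spearman's rho was 0.71 over 8 trees and 0.57 over 7.

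MYC2 and the terpene synthases were the pairs that depended most on pillar tree 4. For the 5 pairs of MYC2 with a terpene synthase the median r was 0.77 over 8 trees and 0.21 over the 7 trees without it, from 0.08 for TPS03 to 0.36 for TPS-CIN b. The 6 pairs of JAZ genes held a median of 0.85 over 8 and 0.715 over 7 trees. MYC2 and JAZ8 had an r of 0.93 over 8 trees and 0.80 over 7. MYC2 was measured on 8 to 25 reads in these 7 trees, and the part of counting error in these values of r was not tested.

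The pairs that stayed close without pillar tree 4 joined JAZ genes to terpene synthases as well as to each other. JAZ10 and TPS03 had an r of 0.89 over the 7 trees, JAZ8 and JAZ2 of 0.88, JAZ10 and TPS-CIN a of 0.87, and TPS-CIN a and TPS-CIN b of 0.84. These were the highest of the 45 pairs over only 7 points. With the next tree farthest from the median of the first-named gene also left out, they were 0.85, 0.71, 0.82 and 0.75. For JAZ8 and JAZ2 that tree was standard tree 7, where JAZ8 had 3 reads. The neighbours TPS02 and TPS14 had an r of 0.57 over 8 trees and 0.05 over 7. TPS02 was the least connected gene on the 7 trees, with an r of 0.69 to JAZ12 and of 0.50 or less to every other gene.

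Computed on deviations from the mean of each growth habit, r was between 0.38 and 0.98 over 8 trees with a median of 0.79. Without pillar tree 4 it was between -0.14 and 0.92 with a median of 0.6, and JAZ10 with TPS03 (0.92), JAZ2 with TPS03 (0.92) and JAZ10 with TPS-CIN a (0.90) were the closest pairs. The medians moved little, but single pairs moved more, such as JAZ8 with TPS03, with an r of 0.76 on these deviations and of 0.40 without removing the growth habit means.

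Against the rest of the transcriptome, r with MYC2 was 0.8 or more over 8 trees for 2.05% of the other tested genes and for 5 of the 9 other jasmonate genes, and over the 7 trees without pillar tree 4 for 0.249% of genes and for 1 of the 9, JAZ8. It was 0.5 or more over 8 trees for 19.3% of genes and for 9 of the 9, and over the 7 trees for 4.37% of genes and for 2 of the 9, JAZ8 and JAZ2.

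**Figure D4:**
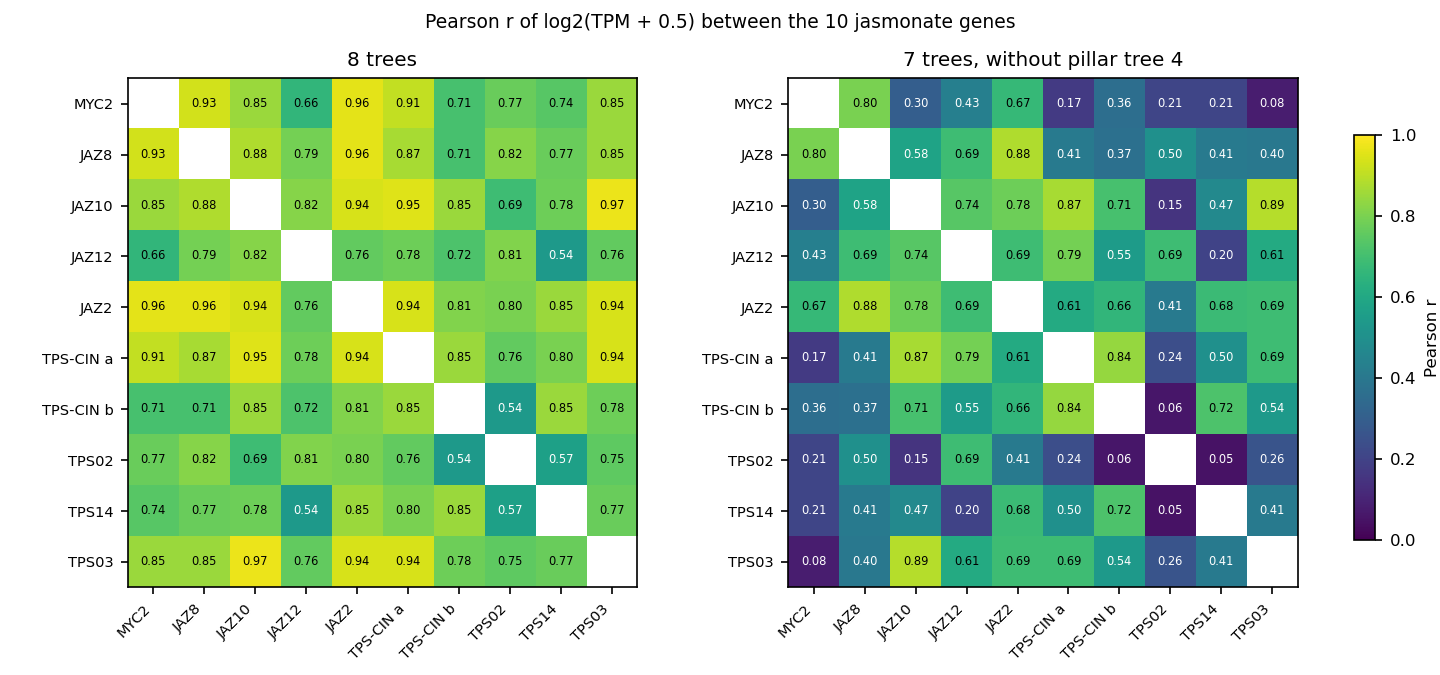
Pearson's r of log2(TPM + 0.5) for each pair of the 10 jasmonate genes, over 8 trees (left) and over the 7 trees without pillar tree 4 (right), with the color scale from 0 to 1 and each value printed in its cell. The MYC2 row holds 0.66 to 0.96 on the left and 0.08 to 0.80 on the right, while JAZ10 with TPS03 stays high at 0.97 and 0.89.

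The genes outside the 10 that were most like them were sought among the 19017 genes that averaged 1 TPM or more, by r with the mean standardised level of the 10 genes. Over 8 trees they were a Kunitz trypsin and protease inhibitor gene (Prupe.4G155200, r = 0.983), a subtilase gene (Prupe.2G242100, 0.977), a gene matched to the cytochrome P450 CYP81D8 (Prupe.6G227400, 0.976), Prupe.4G198800 (0.974) and an aldolase-type TIM barrel gene (Prupe.3G144200, 0.974). Kunitz inhibitors block the digestive proteases of insects. The Kunitz inhibitor gene had 17.04, 1.947, 1.651 and 2.938 TPM in the pillar trees, against 1.003, 1.593, 1.107 and 2.878 TPM in the standard trees. Its order of trees was close to that of JAZ8, with pillar tree 4 first and trees 10 of both habits next.

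Over the 7 trees without pillar tree 4, the most alike genes were Prupe.4G014000 (r = 0.989), a ribonuclease H-like gene (Prupe.6G315500, 0.954), the Kunitz inhibitor gene again (0.943), Prupe.1G161800 (0.940) and Prupe.4G059400 (0.935). The Kunitz inhibitor gene was the 1 gene in both sets, and it was measured on only 9 to 28 reads in these 7 trees. Prupe.4G014000 had 98.03 TPM in pillar tree 4, below the 118.2 to 144.6 TPM of the other 7 trees, so the gene most like the 10 among 7 trees went the other way in the eighth. These were the highest of 19017 values of r over only 7 points, and they are given as a description.

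A further 11 genes of the pathway were taken from the study's own list, 9 under jasmonic acid and 2 matched to CYP94C1 by annotation. As the study chose them on these trees, their direction is not independent evidence. Of the 10 that passed the minimum of 0.5 TPM, 9 were higher in pillar trees (30.7% of all tested genes were) and 9 were highest in pillar tree 4 (31.8% of all tested genes), with a median log2 difference of 0.79 against -0.09 over all tested genes. Without pillar tree 4, the median was 0.0, against -0.139 over all tested genes, with 5 of the 10 higher in pillar and 5 lower. Within lane 6 it was -0.06, against -0.131 over all tested genes, again with 5 of each. None had an adjusted p-value under 0.05 from limma, and 2 had an unadjusted p-value under 0.05, where 4.77% of all tested genes did.

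Among the biosynthesis genes, AOC4, an allene oxide cyclase that closes the ring of the jasmonate precursor, had 604.0, 145.3, 154.6 and 199.4 TPM in the pillar trees, against 109.7, 201.3, 159.9 and 173.8 TPM in the standard trees. LOX2, a lipoxygenase at the head of the pathway, was again highest in pillar tree 4 at 137.7 TPM, followed by pillar tree 7 at 55.08 TPM, with 9.769 to 32.05 TPM in the remaining trees. OPCL1, the ligase that activates a late precursor, went the other way. It lies on chromosome 2 from 14470829 to 14473000, and TAC1 lies on the same chromosome from 23233979 to 23236950. The part of this shared chromosome in the difference of OPCL1 was not tested. OPCL1 (Prupe.2G091700) had 2.14, 1.554, 1.977 and 2.029 TPM in the pillar trees, against 6.827, 2.828, 4.639 and 5.398 TPM in the standard trees, and it was the 1 gene of the list whose growth habits did not overlap (1.93% of all tested genes lay wholly lower in pillar). Its log2 difference was -1.11 with a standard error of 0.24, and the adjusted p of limma was 0.404. Without standard tree 8 the adjusted p was 0.0377, and with each tree left out in turn it reached 1.

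Genes that inactivate the hormone were also highest in pillar tree 4. CYP94B3, which hydroxylates jasmonoyl-isoleucine, had 30.39, 0.6466, 0.3289 and 2.77 TPM in the pillar trees, against 0.3331, 1.586, 1.158 and 3.663 TPM in the standard trees. CYP94C1, which oxidises the hydroxylated hormone further, is matched by a pair of genes. The copy on chromosome 6 (Prupe.6G126400) had 10.09 TPM in pillar tree 4 and 0.3216 to 1.863 TPM in pillar trees 7, 8 and 10, against 0.09206 to 1.584 TPM in the standard trees. The copy on chromosome 7 (Prupe.7G114100) had 6.179, 2.971, 3.856 and 3.088 TPM in the pillar trees, against 1.562, 1.169, 1.603 and 3.286 TPM in the standard trees. This copy had a log2 difference of 0.93 (standard error 0.30, adjusted p = 0.884 from limma), which was 0.73 without pillar tree 4.

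The copies matched to the sesquiterpene synthase TPS21 had 20.43 TPM (Prupe.4G194500) and 282.7 TPM (Prupe.4G198200) in pillar tree 4. Their other pillar trees ranged from 0.1329 to 1.567 TPM and from 3.584 to 7.061 TPM, and their standard trees from 0.401 to 1.481 TPM and from 1.815 to 16.0 TPM. Pillar tree 4 was 13.04 and 17.67 times as high as the next tree for these genes. CYP82G1, the P450 of homoterpene formation in Arabidopsis, was abundant in every tree and less uneven, with 1009, 742.7, 249.6 and 550.1 TPM in the pillar trees, against 514.9, 345.1, 161.2 and 469.9 TPM in the standard trees. TPS04, a geranyllinalool synthase in Arabidopsis, stayed below the minimum level and was highest in pillar tree 4 as well, at 0.7943 TPM.

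**Figure D5:**
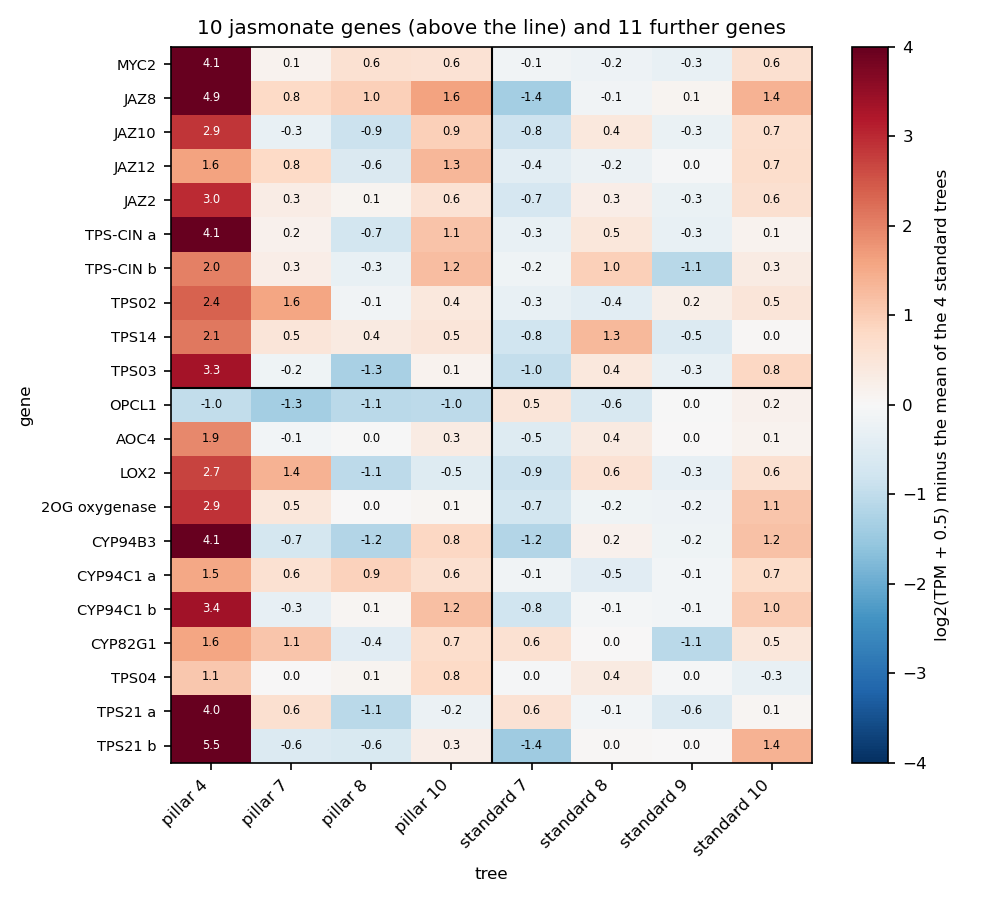
Level of the 10 jasmonate genes (above the line) and the 11 further genes (below) in each tree, as log2(TPM + 0.5) minus the mean of the 4 standard trees, with pillar trees left of standard trees. The color scale ends at -4 and 4, so that larger values have the color of the end. The column of pillar tree 4 is red for all genes but OPCL1, which is lower in all 4 pillar trees.

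Outside the hormone pathway, 11 genes of the same list for WRKY factors, proteinase inhibitors, wound-responsive proteins and plastid terpene precursors gave a mixed picture. The mean of the pillar trees was the higher for 11 of 11 (30.7% of all tested genes), and 6 were highest in pillar tree 4 (31.8% of all tested genes). As the study chose these genes on the same trees, this direction is not independent evidence, and the WRKY40 genes and DXS are named here after their values were seen. In the limma fit 5 had an unadjusted p-value under 0.05 (4.77% of all tested genes) and 0 an adjusted one (0.12%). The 5 are not all independent of each other. They include wound-responsive genes close together on chromosome 3 (Prupe.3G229400 from 22774985 and Prupe.3G230300 from 22799164). They also include a cystatin gene (Prupe.2G044800) on chromosome 2, the chromosome of TAC1. A gene matched to the defense regulator WRKY40 (Prupe.3G098100) was highest in the same tree, at 45.25 TPM in pillar tree 4 and 2.045 to 3.344 TPM in pillar trees 7, 8 and 10, against 1.73 to 4.096 TPM in the standard trees. A second match to WRKY40 (Prupe.1G393000) had 11.08, 10.84, 19.04 and 8.762 TPM in the pillar trees, against 5.818, 7.915, 7.869 and 10.07 TPM in the standard trees, with pillar tree 8 the highest. DXS, which starts the plastid pathway to terpene precursors, had 81.8 TPM in pillar tree 4, against 40.83 TPM in standard tree 8 as the next tree. In contrast, a wound-responsive family gene (Prupe.3G230300) had 308.4, 533.5, 402.2 and 402.4 TPM in the pillar trees, against 295.6, 204.2, 268.8 and 258.5 TPM in the standard trees. This gene was 1 of 2 on the list whose pillar trees all lay above the standard trees (1.0% of all tested genes), and pillar tree 4 was the lowest of the pillar trees (log2 difference 0.67, standard error 0.19, adjusted p = 0.771 from limma).

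The genes next to the 10 on the chromosomes were examined in the same way. Of the 51 nearest other genes, up to 3 on each side, 40 were tested, and pillar tree 4 was the highest tree for 16 of them (40.0%, against 31.8% of all tested genes). It was more than 2-fold above the next tree for 1 of the 40, against 0.898% of all tested genes. Of the 40 tested neighbours 0 had an adjusted p-value under 0.05 from limma (0.12% of all tested genes) and 4 had an unadjusted p-value under 0.05 (4.77% of all tested genes).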

How the data were processed

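The authors trimmed single 50-bp reads, aligned them to peach genome version 2 in CLC Genomics Workbench and deposited 1 table of TPM values per gene and tree. The table also holds the authors' own fold changes and p-values, which were not used. Its 53746 rows hold 26873 genes, the second row of each being 0. TPM was scaled to the full gene region with its introns. TPM multiplied by length rose in equal steps of 1 read (100% of values under 10000 reads whole within 0.05), which gave the reads used for depth and exact 95% counting intervals.

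Genes averaging 0.5 TPM or more were fitted with limma 3.58.1 (R 4.3.3) on log2(TPM + 0.5), with a variance trend, no covariate and Benjamini-Hochberg adjustment. A fold on this scale understates the change of low genes. The fit was tested on simulated data. Summaries used Python 3.11.15, numpy 2.4.6, pandas 2.3.3 and scipy 1.17.1. The 10 genes and the lists were chosen with earlier results of these data known. Names come from the study's gene list and are nearest Arabidopsis matches. Genes named outside the 10 were the other jasmonate genes of that list and the 5 most alike over 8 and over 7 trees, and those of the stress list were chosen after their values were seen. Lists by annotation of all genes, markers of shoot tissues and sequences were not used here. Scaling, pseudocount, filter, lane, tree number and single trees were varied.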

Additional observations from a re-analysis of the deposited data

Results flagged for a closer look

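Within growth habits of 4 trees, a tree was singled out where its gap to the nearest other tree took up nearly the whole range of the group in TPM. Among 42 groups (21 jasmonate genes in each growth habit) this happened 13 times. Over all tested genes it happened for 6.52% in the pillar trees and for 6.01% in the standard trees. The genes were chosen on these libraries and are not independent of each other, so the number is a description. In 12 of the 13 the tree was pillar tree 4, which was high in this way for 3.07% of all tested genes. For the genes described above, its gap took 0.973 of the range of the pillar trees for MYC2, 0.952 for JAZ8, 0.942 for JAZ2, 0.905 for TPS-CIN a, 0.958 for TPS14 and 0.928 for TPS03. For the further genes the share was 0.882 for AOC4, 0.944 for the 2OG oxygenase gene Prupe.2G250900, 0.919 for CYP94B3, 0.842 for the CYP94C1 copy on chromosome 6, 0.929 for the TPS21 copy Prupe.4G194500 and 0.988 for the copy Prupe.4G198200. The remaining case was MYC2 in standard tree 10, whose gap took 0.871 of the range of the standard trees at 1.223 TPM and 25 reads.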

How the results depend on the processing

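The direction of the 10 genes held under all scalings, pseudocounts and filters tried. With pillar tree 4 left out 2 of the 10 were below 0, and within lane 6 there was 1. With the tree number as replicate block there were 2, and the medians were 0.42, 0.36 and 0.25. None of these settings, nor lane as a term, draws on pillar tree 4 for the difference. Lane 8 held only pillar trees, and the trees numbered 4 and 9 have no partner in the replicate block. These settings thus cannot tell lane or tree number apart from the loss of that tree. Over all genes, 24 had an adjusted p-value under 0.05, against 11 with lane as a term, 6 with the replicate block and 17 to 85 when single trees were left out, the 85 being without standard tree 8. By the study's criteria, applied to the limma fit, 447 genes passed. The number was 1225 within lane 6, 1159 with lane as a term and 1098 with the replicate block. With each tree left out it was 348 to 747, the 747 being without pillar tree 4. Of the 447 genes, 50.1% were higher in pillar. The share was 16.5% within lane 6, 17.4% with lane as a term, 23.0% with the block and 26.4% without pillar tree 4. It was 58.6% after scaling to equal upper quartiles and 58.9% without standard tree 10. Deviations from the growth habit means correlated between same-numbered trees at 0.287 for number 7, 0.0964 for 8 and -0.0911 for 10. These values lay within the range of the differently numbered pairs, -0.411 to 0.32.

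The median log2 difference of the further jasmonate genes, 0.79, was -0.06 within lane 6 and with lane as a term, -0.05 with the replicate block, and 0.0 to 1.16 with each tree left out. That of the terpene synthases outside the 10, 0.99 over 2 tested genes, was -0.41, -0.41 and -0.35 in these settings, -0.26 without pillar tree 4 and up to 1.6 with other trees left out. The r of the other 9 genes with MYC2 stayed between 0.62 and 0.98 except without pillar tree 4 and within lane 6. Depth limits the precision of MYC2, which had 8 to 25 reads in 7 of the 8 trees.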
